A study of Mus musculus with 11 samples.

Results

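KIT+ spermatogonia of 15-month-old mice were compared with those of 8-month-old mice across all genes, in the 2 libraries titled for 15 months and the single library titled for 8 months, that is, in 3 of the 11 libraries of the series. All mice were B6;CBA-Tg(Pou5f1-EGFP)2Mnn/J males, a line that carries green fluorescent protein under the regulatory sequence of Oct4, the gene also called Pou5f1. The cells of every group were primary Oct4-GFP+ germ cells taken from the testis without a further treatment and split by surface KIT, so the labels of the groups compared differ in age alone. Each population was sorted in 2 independent experiments. The ages used here are those of the labels. Other descriptions of the same mice, as adult and aged, give 6 months or 6 to 8 months for the younger group and 15 months or 15 to 18 months for the older one. The reporter and the KIT antibody define the cells, so a library holds whatever passed both gates, and the number of mice behind a library is not given in the sources used here. The 8-month side had 1 library, so the spread between sorts at that age was not measured: the test took its spread from the 5 groups with 2 libraries each, which were 15-month KIT+ cells, KIT- cells of 8 and 15 months and both fractions at 6 days.

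Spermatogonia lie at the base of the seminiferous tubule. Stem and progenitor cells that lack KIT, the receptor for stem cell factor, renew themselves, and retinoic acid drives them into the KIT+ differentiating state, in which they divide several times, replicate their DNA a last time and enter meiosis. KIT+ cells are known for brisk proliferation, for high levels of RNA-binding proteins of the germ line such as Dazl and Ddx4, and for expression of Stra8, a retinoic acid target needed for meiotic entry.

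The 8-month library held 13815108 reads on genes, and the 15-month libraries held 59205907 and 76756544, which is 4.29 and 5.56 times as many. For 1 kb of exon, 3 reads stood for 0.217 RPKM in the 8-month library and for 0.0507 and 0.0391 RPKM in the 15-month libraries, so low genes were measured less precisely at 8 months. RPKM scales reads by exon length and by the total of the library. In spite of its lower depth the 8-month library had a read on 20247 annotated genes, against 18421 and 19834 in the 15-month libraries, and after thinning to equal depth the numbers were 20018, 17139 and 18203. The root mean square distance over the genes tested, on the log2(RPKM + 1) scale, was 0.369 between both 15-month libraries and 0.516 and 0.462 from the 8-month library to each of them.

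The defining genes of the sort were present at both ages. Kit was at 81.3 RPKM in the 8-month library and 67.8 and 62.8 RPKM in the 15-month libraries, while the KIT- libraries of these ages ranged from 5.63 to 9.66 RPKM. Its difference between the ages was -0.31 ± 0.15 (log2, SE), which did not pass the test in limma (adjusted p = 0.384). Pou5f1, the source of the reporter, was low in KIT+ cells, at 5.13 RPKM in the 8-month library and 9.05 and 3.88 RPKM in the 15-month libraries, against 44.9 to 70.2 RPKM in the KIT- libraries. Stra8 was at 90.1 RPKM in the 8-month library and 170.1 and 141 RPKM in the 15-month libraries, and both 15-month values lay above the 8-month value, but the difference of 0.77 ± 0.28 did not pass (adjusted p = 0.246, limma). Sohlh1 and Sohlh2, transcription factors of spermatogonial differentiation, were at 20.9 against 30.1 and 23.7 RPKM and at 85.5 against 87.4 and 78.6 RPKM. Dmrt1, which restrains meiotic entry, was at 60.7 against 70.0 and 70.4 RPKM, Zbtb16, a stem and progenitor cell factor also called Plzf, at 39.1 against 31.6 and 27.9 RPKM, and Gfra1, the receptor of the stem cell ligand GDNF, at 1.63 against 2.15 and 1.41 RPKM. The germ cell genes Ddx4, an RNA helicase, and Dazl, an RNA-binding protein, were at 106 against 129 and 109.7 RPKM and at 311 against 434 and 389.5 RPKM. None of the genes of this check passed the test between the ages.

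Across the transcriptome, 97 of 18412 genes tested differed between the ages at a false discovery rate up to 0.05 and a fold change of 1.5 or more (0.527%, limma on log2(RPKM + 1)). Of these, 22 were higher (0.119%) and 75 lower (0.407%) at 15 months. In each of the 97 genes both 15-month libraries lay on the same side of the 8-month library, as they did in 13655 of all 18412 genes tested. Genes called on this contrast are likely to show that, so it is a description. By a nominal, that is unadjusted, p up to 0.05, 1122 genes were higher (6.09%) and 1575 lower (8.55%). The median log2 fold change of all genes was -0.03. The lower genes fell mainly into a pair of classes, visible as separate clouds in the plot of all genes: 31 were near 0 in every group but the 8-month libraries, and 31 had over 8000 bp of exon. The number of calls depended on the scaling and on single libraries. With median-of-ratios scaling the split was 61 higher and 67 lower in place of 22 and 75. Without 15-month KIT+ replicate 1 there were 50 calls (29 higher, 21 lower) and without replicate 2 there were 22 (3 higher, 19 lower). Leaving out 1 library of another group, which alters only the spread, gave 27 to 48 calls for the 6-day and 8-month KIT- libraries and 322 and 323 for 15-month KIT- replicates 1 and 2. A list with 0 calls is not shown to be unchanged by this test, which with 1 library at 8 months misses many changes. P-values measure only the spread between these libraries, which may in part be technical. A fit on the 3 KIT+ libraries alone gave 0 calls by limma, with 2889 genes with a nominal p up to 0.05.

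**Figure D1:**
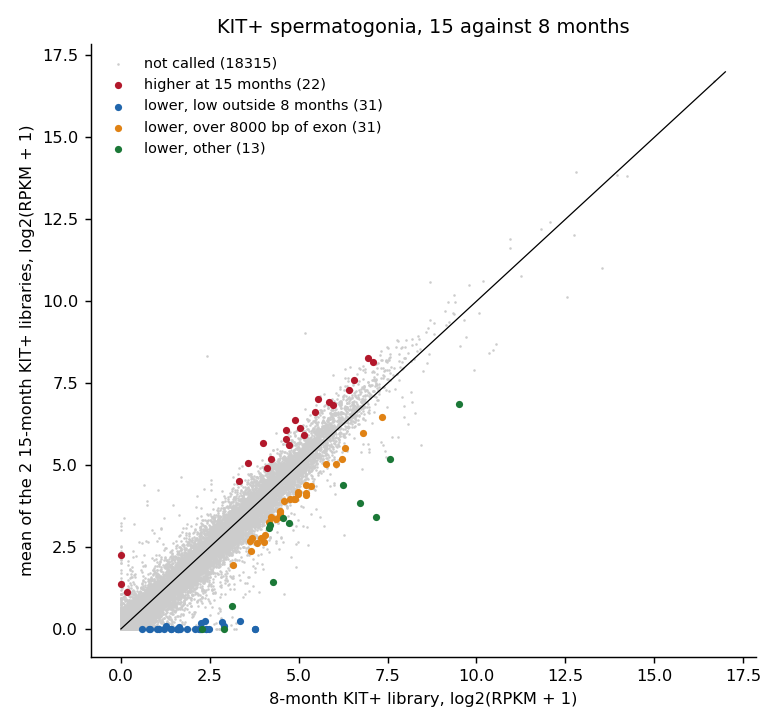
Each point is 1 of the 18412 genes tested, with its level in the 8-month KIT+ library on the x axis and the mean of both 15-month KIT+ libraries on the y axis, both as log2(RPKM + 1), and the line marks equal levels. The 22 higher genes lie above the line, 31 of the 75 lower genes lie at or near the floor of the y axis, and the 31 lower genes with over 8000 bp of exon form a band just under the line.

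The largest decreases of protein-coding genes were in genes of the oocyte programme, which serve egg growth, the egg coat or the first divisions of the embryo and are usually silent in the male germ line. Of 46 genes on the oocyte list 39 were tested, and 15 were called lower and 0 higher, beside 0.407% and 0.119% of all genes. Without the 8-month libraries 4 of the 15 would have passed the filter on reads. The other 11 were tested only because they were high at 8 months, so the count is a description. H1foo (ENSMUSG00000042279, chr6:115894956-115900254 on the NCBIM37 build used throughout), the linker histone of the egg, was at 12.8 RPKM in the 8-month library and 0 and 0 RPKM in the 15-month libraries. With 3 reads over both 15-month libraries as the floor, its level was at least 695-fold lower at 15 months, and the difference was -3.78 ± 0.25. H1foo passed the filter on reads only through the 8-month libraries, so its p is not given as support. Bcl2l10 (ENSMUSG00000032191, chr9:75195565-75199439), an anti-apoptotic protein abundant in oocytes, was at 12.8 RPKM in the 8-month library and 0 and 0 RPKM in the 15-month libraries, or at least 705-fold lower. Both genes thus had 212 and 215 reads at 8 months and none in the deeper 15-month libraries. Without 15-month KIT+ replicate 1, 10 of the 15 were called, and without replicate 2, 5.

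Further genes of the programme were at a trace at 15 months. Btg4 (ENSMUSG00000032056, chr9:50924106-50927980), which drives the clearance of maternal mRNA, was at 6.43 RPKM in the 8-month library and 0.148 and 0 RPKM in the 15-month libraries (-2.79 ± 0.26, adjusted p = 0.00817, limma). Gdf9 (ENSMUSG00000018238, chr11:53244525-53251406), a growth factor that the oocyte secretes to its follicle, was at 6.13 RPKM in the 8-month library and 0.15 and 0.186 RPKM in the 15-month libraries, or 36.5-fold lower, and Zbed3 (ENSMUSG00000041995, chr13:96095192-96107796), a protein of the maternal complex under the egg membrane, was at 9.13 RPKM in the 8-month library and 0.0892 and 0.255 RPKM in the 15-month libraries, or 53.2-fold lower. Bmp15, the partner of Gdf9, was at 2.01 against 0 and 0 RPKM. These and the other called members ranged from 1.4 to 12.8 RPKM (28 to 239 reads) in the 8-month library and reached at most 0.255 RPKM at 15 months, where 9 of the 15 were listed at 0 in both libraries. Obox1, Obox2 and Obox5, egg homeobox genes, and the pair Omt2a and Omt2b are close copies whose reads the counting could split, so their single values are uncertain.

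The 300 bases around the start of 3 called genes are shown because these genes were all called lower. They run from 250 bases before to 50 after the start in RefSeq (GRCm38.p6), and capitals mark CANNTG, the E-box that FIGLA, the basic helix-loop-helix factor of the oocyte, is known to bind.
H1foo, listed as H1f8 in RefSeq, chr6:115944681-115944980, plus strand: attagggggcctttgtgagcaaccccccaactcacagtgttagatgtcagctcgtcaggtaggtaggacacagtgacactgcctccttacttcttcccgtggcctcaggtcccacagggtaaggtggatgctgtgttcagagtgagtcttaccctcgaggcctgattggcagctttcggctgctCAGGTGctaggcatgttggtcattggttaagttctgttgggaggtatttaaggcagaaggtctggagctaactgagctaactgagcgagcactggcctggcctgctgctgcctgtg
Btg4, chr9:51115751-51116050, plus strand: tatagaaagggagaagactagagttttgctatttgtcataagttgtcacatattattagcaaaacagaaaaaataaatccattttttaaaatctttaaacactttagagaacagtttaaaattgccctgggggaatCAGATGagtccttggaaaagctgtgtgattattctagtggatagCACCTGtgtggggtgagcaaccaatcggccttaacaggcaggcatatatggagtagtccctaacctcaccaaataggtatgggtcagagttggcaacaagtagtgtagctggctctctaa
Oosp1, chr19:11691002-11691301, minus strand: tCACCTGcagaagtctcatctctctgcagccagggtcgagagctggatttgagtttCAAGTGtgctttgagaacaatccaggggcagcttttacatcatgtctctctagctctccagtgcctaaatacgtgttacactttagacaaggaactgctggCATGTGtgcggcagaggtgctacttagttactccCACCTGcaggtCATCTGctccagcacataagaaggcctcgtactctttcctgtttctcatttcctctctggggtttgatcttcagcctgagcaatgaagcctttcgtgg
Oosp1, a protein secreted by the oocyte, was at 4.61 against 0 and 0 RPKM. CANNTG reads the same on both strands. It was found 1 time in the window of H1foo, 2 times in that of Btg4 and 5 times in that of Oosp1. Of the 15 called genes 11 matched a RefSeq promoter window, and 11 of the 11 held the motif, against 72.3% of all 32851 windows of this length, with 2.55 against 1.39 matches a window on average. TAATTG, searched on both strands as an element of the oocyte homeobox factor NOBOX, was in 1 of the 11 windows and in 8% of all windows. Neither motif contains the other. The windows of the Obox and of the Omt2 genes are those of close copies, so the 11 are not independent.

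The genes of both factors were read at each age. Figla was at 3.24 against 2.18 and 2.49 RPKM and Nobox at 1.52 against 0.409 and 1.73 RPKM, neither of which passed the test, and the 15-month values of Nobox lay on both sides of the 8-month value. Members that spermatogonia also express were read at both ages as well: Nlrp4c, of the NLR family of maternal proteins, was at 62.9 against 68.3 and 64.8 RPKM, Nlrp14 at 11.1 against 17.4 and 12.3 RPKM and Dppa3, a protector of maternal DNA methylation, at 8.03 against 6.12 and 5.02 RPKM. The egg coat genes Zp1 and Zp2 were under the test's limit, at 0.0365 against 0 and 0 RPKM and 0.15 against 0 and 0 RPKM, and Zp3 was at 2.35 against 1.17 and 1.99 RPKM. The list's median log2 fold change was -0.40, beside -0.03 over all genes.

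The 15 genes were not particular to the KIT+ fraction of the 8-month mice. H1foo was at 29.9 and 20.7 RPKM in the 8-month KIT- libraries and at 0 in both 15-month KIT- libraries. For the 15 called members the 8-month KIT+ level was 0.403 to 0.635 times the mean of the 8-month KIT- libraries (median 0.504), and the 6-day libraries reached at most 0.663 RPKM. All 15 were also called lower at 15 months in KIT- cells. That count is a description too, because most of the 15 were tested only because they were high at 8 months. The age effect of 0 of the 15 differed between the fractions (lowest adjusted p = 0.217, limma). Outside the 3 libraries of 8 months no library exceeded 0.663 RPKM for any of the 15, so age and whatever else the 8-month libraries shared cannot be told apart, and in bulk RNA fewer cells of a type and less RNA per cell cannot be told apart either.

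**Figure D2:**
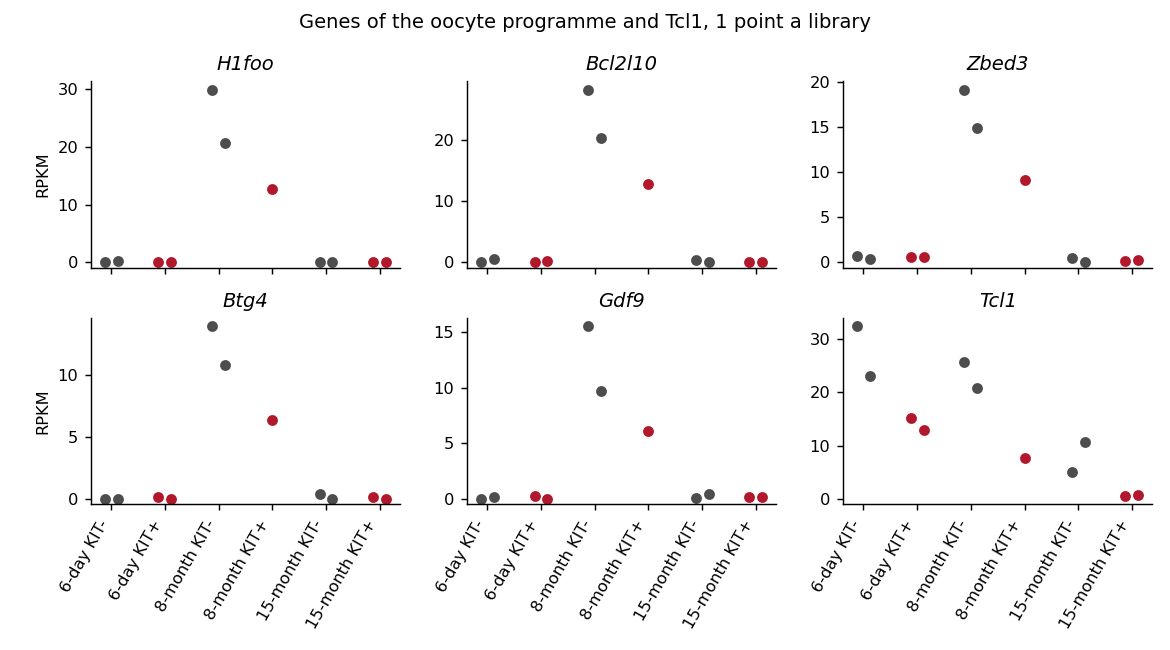
RPKM of 5 genes of the oocyte programme and of Tcl1 in each of the 11 libraries, grouped on the x axis, with KIT+ libraries in red and KIT- libraries in grey and 1 point a library. H1foo, Bcl2l10, Zbed3, Btg4 and Gdf9 stand clear of 0 only at 8 months, where KIT+ lies under KIT-, whereas Tcl1 is also present at 6 days and in the 15-month KIT- libraries.

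Another 16 of the 31 genes read mainly at 8 months were not on the list, and those named here were chosen after their values were seen. They included Tcl1b1, Tcl1b2 and Tcl1b3, relatives of Tcl1 in the egg, at 2.65 against 0 and 0 RPKM, 1.32 against 0 and 0 RPKM and 1.01 against 0 and 0 RPKM. Oog3, an oogenesin, was at 2.06 against 0 and 0 RPKM and Pabpn1l, a poly(A)-binding protein of the egg, at 0.757 against 0 and 0 RPKM. E330021D16Rik, which the rule on differences between the fractions named, was at 3.76 RPKM in the 8-month library and 0 and 0.245 RPKM in the 15-month libraries (-2.09 ± 0.22). It passed the filter on reads only through the 8-month libraries. The class was set from these values (a mean under 0.5 RPKM over the 8 libraries of other ages and a value above 0 in all 3 libraries of 8 months), so its count is a description: 20.1% of all genes tested met the same limits. Hba-a2, a haemoglobin gene, was among them at 1.08 against 0 and 0 RPKM, and 1 of the 3 tested genes of the erythroid list was called.

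Tcl1, a co-activator of AKT that marks undifferentiated cells, fell from 7.65 RPKM to 0.54 and 0.706 RPKM (-2.42 ± 0.36, adjusted p = 0.0416, limma), which is 12.3-fold. It was 1 of 36 tested genes of undifferentiated spermatogonia that passed, 0 of which were higher. In KIT- cells it was at 25.6 and 20.9 RPKM at 8 months and at 5.14 and 10.6 RPKM at 15 months. The list's median was -0.04, near that of all genes. Among the uncalled members, chosen after their values were seen, Epcam, a surface adhesion protein, was at 69.9 against 123 and 122 RPKM and Id4, an inhibitor of helix-loop-helix factors enriched in stem cells, at 0.785 against 0.275 and 0.235 RPKM.

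The second class of lower genes consisted of long transcripts. Mll2 (ENSMUSG00000048154, chr15:98662100-98701614) and Mll1 (ENSMUSG00000002028, chr9:44611438-44689379), histone H3 lysine methyltransferases now named Kmt2d and Kmt2a, were at 7.97 against 2.75 and 2.95 RPKM and at 15.5 against 5.4 and 7.25 RPKM. In both, each 15-month value was under the 8-month value, with differences of -1.22 ± 0.15 and -1.18 ± 0.19 (adjusted p = 0.0226 and 0.0489, limma). Cdh2, the adhesion protein N-cadherin, was at 11.7 against 4.23 and 4.15 RPKM, or 2.8-fold lower, and was the 1 called gene of 68 on the adhesion and matrix list. Chosen after their values were seen, Ep400 and Trrap, large chromatin remodelling subunits, were at 35.9 against 15 and 16.8 RPKM and 35.6 against 15.8 and 17.3 RPKM, Ep300, a histone acetyltransferase, at 28.1 against 14.5 and 15 RPKM, and Mdn1, a giant ATPase of ribosome assembly, at 161 against 86.1 and 87.4 RPKM.

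Together the 31 genes fell by 0.68 to 1.37 on the log2 scale. They made up 41.3% of the lower genes, whereas 8.69% of all genes tested had as much exon. The 22 higher genes had a median of 1235 bp of exon and none over 4944 bp, while the median over all genes was 3155 bp. Calls of these long genes depended on single libraries: 1 of the 31 was called without 15-month KIT+ replicate 1 and 0 without replicate 2 (limma, where 97 calls in all became 22), and between 3 and 4 without any 1 of the 6-day or 8-month KIT- libraries.

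Fold change varied with exon length across the expressed transcriptome. Among genes that averaged 5 RPKM or more, the median log2 fold change was -0.65 up to 500 bp, 0.41 from 500 to 1000 bp, 0.34 from 1000 to 2000 bp, 0.12 from 2000 to 4000 bp, -0.09 from 4000 to 8000 bp and -0.33 above 8000 bp. In KIT- cells the medians of the same bins lay between -0.18 and 0.12. When each library's trend on exon length was divided out, a correction chosen after the trend was seen, 42 genes were called, 5 higher (0.0272%) and 37 lower (0.201%). Of these, 40 were among the 97. Of the 31 long genes 1 kept its call, and their median difference went from -0.93 to -0.50, while 30 of the 31 genes read mainly at 8 months kept theirs. In KIT- cells all 31 long genes were below 0 as well, with a median of -0.51. What makes the libraries differ by exon length was not tested.

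**Figure D3:**
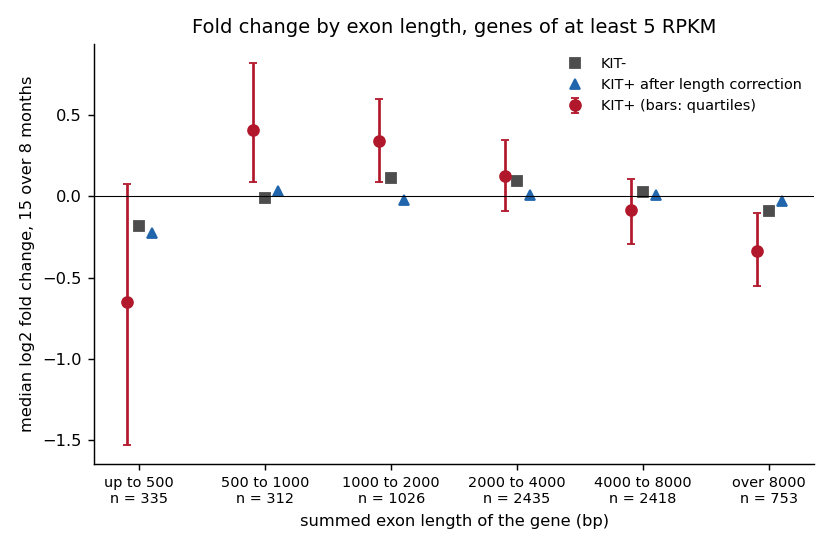
Median log2 fold change of 15 over 8 months on the y axis for genes of at least 5 RPKM in 6 classes of summed exon length, with the number of genes under each class. Red circles with quartile bars are KIT+ cells, grey squares KIT- cells and blue triangles KIT+ cells after the length correction, and the red medians go from 0.41 at 500 to 1000 bp to -0.33 above 8000 bp.

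Of the 22 genes that rose no gene list held more than 1. Among the 22, an entry annotated as 7SK and the pseudogene Gm13829 passed the filter on reads only through the 15-month KIT+ libraries. Isca2 (ENSMUSG00000021241, chr12:86114220-86116039), which builds iron-sulphur clusters in mitochondria, was at 15.1 RPKM in the 8-month library and 54.2 and 45.7 RPKM in the 15-month libraries, 3.31-fold higher (1.66 ± 0.26, adjusted p = 0.0452, limma). Mrpl11, a protein of the mitochondrial ribosome, was at 10.9 against 33.9 and 30.9 RPKM, and Gstm5, a glutathione transferase, at 45.9 against 136 and 123 RPKM. In each of these the lower 15-month library lay far above the 8-month value. Hmgb1, an abundant chromatin protein, was at 29 against 79.8 and 84.4 RPKM, and H2-Ke2, the prefoldin subunit now named Pfdn6, at 24.1 against 70.8 and 63 RPKM. Hspa5 (ENSMUSG00000026864, chr2:34627490-34632051), the main chaperone of the endoplasmic reticulum, was at 122 RPKM in the 8-month library and 314 and 306 RPKM in the 15-month libraries (1.34 ± 0.21, adjusted p = 0.0448, limma).

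Commd5, of the COMM domain family, was at 9.08 against 21.6 and 22.5 RPKM. The splicing factor subunit 0610009D07Rik, now Sf3b6, was at 42.8 against 90.3 and 105 RPKM, and 2700060E02Rik, now Rtraf and a part of the tRNA ligase complex, at 31.7 against 68.9 and 68.8 RPKM. Arf2 (ENSMUSG00000062421, chr11:103828053-103846651), a small GTPase of Golgi traffic, was at 24.1 against 53.3 and 54.9 RPKM (1.13 ± 0.14, adjusted p = 0.0191, limma). Fen1 (ENSMUSG00000024742, chr19:10273622-10278659), the flap endonuclease that processes Okazaki fragments, was at 61.4 against 115 and 110.1 RPKM, 1.83-fold higher (adjusted p = 0.0289, limma). Of these 11 genes Arf2 and Fen1 kept their call with length-corrected values (adjusted p = 0.0309 and 0.0432), and the others did not, at differences of 0.68 to 1.54 and adjusted p of 0.0644 to 0.178. Hmgb1 lost its call although its difference was no smaller (1.54 in place of 1.47). Polr2e, a subunit shared by the RNA polymerases and chosen after its values were seen, was at 17.6 against 36.6 and 33.6 RPKM and kept its call. Eif3e and Eif3l, subunits of the translation initiation factor eIF3 and also chosen later, were at 93 against 189.6 and 195 RPKM and 84.3 against 161 and 148 RPKM. In each of these higher genes both 15-month libraries lay above the 8-month library. The rule for the largest changes took only genes without overlap, and the others were called list members or chosen later, so this is a description.

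Some lowered genes belonged to neither class: 7 had under 300 bp of exon and 6 were longer. Smagp, a small membrane glycoprotein of cell adhesion, was at 75.4 RPKM in the 8-month library and 20.1 and 19.9 RPKM in the 15-month libraries, 3.77-fold lower (-1.86 ± 0.27, adjusted p = 0.0416, limma). Of the non-coding genes, SCARNA6, a guide RNA of the Cajal body, was at 105 against 11.7 and 15.2 RPKM, Snord17, a guide RNA of the nucleolus, at 190.1 against 43.7 and 27.3 RPKM, and the lincRNA Gm10060 at 22.4 against 8.2 and 10.6 RPKM. All of these fell, and their 15-month values were all under the 8-month value, which the rule that named them required. Both guide RNAs are under 300 bp long. The 241 tested snoRNA genes had a median log2 fold change of -0.83, and 3 of them were called lower, beside 0.407% of all genes. mt-Nd6, a subunit of complex I and the 1 called gene of 14 tested on the mitochondrially encoded list, was at 25.4 against 7.26 and 9.39 RPKM. The mitochondrial tRNA gene mt-Tw, which is not on that list and was chosen after its values were seen, was also called lower, at 732 against 91.8 and 141 RPKM (-2.68 ± 0.35, adjusted p = 0.0297, limma). The called gene mt-Nd6 overlaps the end of mt-Nd5 on the opposite strand, and whether the counting used strand is not given in the sources used here. Of the 12 mitochondrial protein-coding genes tested, 10 were lower in both 15-month libraries, beside 42.6% of all genes, among them mt-Cytb, a subunit of complex III, at 219.7 against 48.6 and 65.8 RPKM, and mt-Nd4, of complex I, at 267 against 64.5 and 86 RPKM, neither of which passed. The ribosomal RNA mt-Rnr2 held 15.6% to 18.5% of the reads of the KIT+ libraries of both ages.

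Gene lists of the growth machinery lay above 0 as groups although few members passed. Of 78 tested ribosomal protein genes 0 were called in either direction by limma, 38 were higher and 0 lower with a nominal p up to 0.05, and 73 were higher in both 15-month libraries, against 6.09%, 8.55% and 31.6% of all genes. The summed level of the list was 6244 RPKM in the 8-month library and 10166 and 9325 RPKM in the 15-month libraries. Rps3a and Rps2, the members with the highest mean, were at 549 against 918 and 742 RPKM and 594 against 701 and 627 RPKM. The list's median log2 fold change was 0.57, 0.25 with length-corrected values and -0.22 in KIT- cells. With length-corrected values 22 were higher and 2 lower with a nominal p up to 0.05, beside 4.63% and 7.1% of all genes. Ribosomal protein genes have many pseudogene copies, so reads may have been split.

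Of 79 nuclear genes of oxidative phosphorylation 0 were called. With a nominal p up to 0.05, 26 were higher and 0 lower, against 6.09% and 8.55% of all genes. After the length correction 14 were higher and 3 lower at that p, against 4.63% and 7.1%. The median was 0.40, or 0.12 with length-corrected values. Cox4i1, of complex IV, was at 222 against 504 and 379 RPKM, and Atp5c1, of the ATP synthase, at 223 against 357 and 317 RPKM. The mitochondrially encoded list had a median of -0.62, so the nuclear and the mitochondrial genes lay on opposite sides of 0. The antioxidant list had 1 call of 39, Gstm5, and a median of 0.14, or -0.02 with length-corrected values. For glycolysis and lactate 0 of 34 were called, with Gapdh at 144 against 175 and 174 RPKM and Pkm2 at 68.8 against 94.7 and 70.9 RPKM.

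Among 41 genes of heat shock and protein folding, Hspa5 was the 1 call, and the median of 0.42 moved little with length-corrected values (0.38). With a nominal p up to 0.05, 2 were lower and 13 higher, beside 8.55% and 6.09% of all genes. The subunits of the chaperonin that folds actin and tubulin were among those: Cct3 was at 111 against 293 and 229 RPKM and Cct4 at 72.2 against 127 and 114 RPKM. Calr, a lectin chaperone of the endoplasmic reticulum, was at 150.0 against 275 and 275 RPKM. In these 3 both 15-month libraries lay above the 8-month library. Hsph1, a nucleotide exchange factor of HSP70, lay the other way at 15.8 against 5.99 and 8.13 RPKM (adjusted p = 0.0575, limma). These uncalled members were chosen after their values were seen.

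For DNA replication, Fen1 was the 1 call of 47, and the median was 0.13. With a nominal p up to 0.05, 15 genes were higher and 2 lower, beside 6.09% and 8.55% of all genes. After the length correction 14 were higher and 1 lower, beside 4.63% and 7.1% of all genes. Pcna, the sliding clamp, was at 71.5 against 122 and 115 RPKM, Mcm3, of the replicative helicase, at 88.7 against 141 and 142 RPKM, and Rpa1, which coats single strands, at 34.1 against 58.6 and 54 RPKM, all chosen after their values were seen and none of them called. The summed level of the replication-dependent histones was 2876 RPKM in the 8-month library and 4068 and 3604 RPKM in the 15-month libraries, with 0 of 59 called and a median of 0.05. With a nominal p up to 0.05, 10 were higher and 0 lower, beside the same 6.09% and 8.55% of all genes. With length-corrected values 5 were higher and 4 lower at that p, and the median was -0.15. Hist1h1a, a linker histone, was at 589 against 1095 and 925 RPKM and Hist3h2ba at 289 against 410.3 and 406 RPKM. The cell cycle list was balanced, with 0 of 52 called and a median of 0.01. At that p 9 were higher and 6 lower, beside 6.09% and 8.55% of all genes. Top2a, which untangles chromosomes, was at 167 against 172 and 157 RPKM and Kif11, a spindle motor, at 113 against 169 and 163 RPKM.

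**Figure D4:**
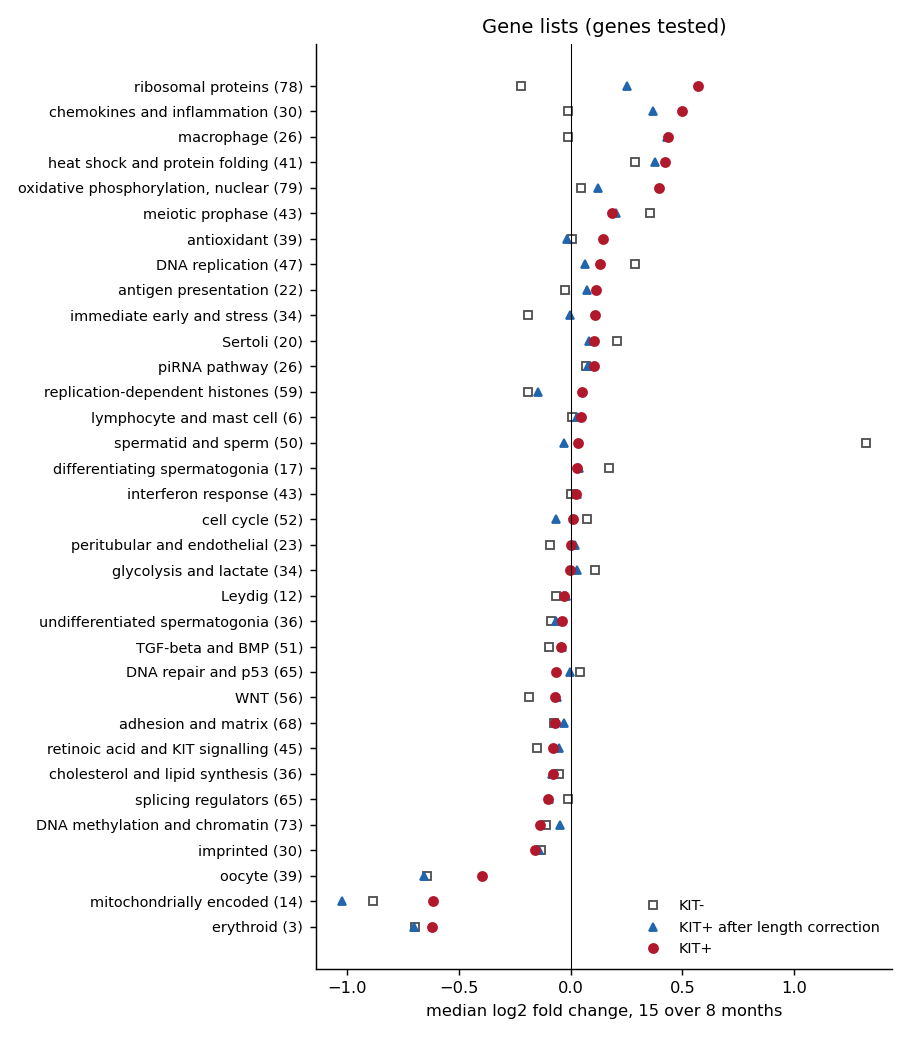
Median log2 fold change of 15 over 8 months on the x axis for each of 34 gene lists, with the number of genes tested in brackets. Red circles are KIT+ cells, blue triangles KIT+ cells after the length correction and grey squares KIT- cells, and the red medians run from -0.62 for the 3 erythroid genes to 0.57 for the ribosomal proteins.

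No gene on the lists of differentiation, meiosis and the piRNA pathway passed the test. Of 17 genes of differentiating spermatogonia 0 were called, and the median was 0.03. With a nominal p up to 0.05, 3 were higher and 1 lower, beside 6.09% and 8.55% of all genes. Tex101, a germ cell surface protein, was at 80.5 against 177 and 165 RPKM (1.08 ± 0.22, adjusted p = 0.0847, limma), and Dnmt3a, a de novo DNA methyltransferase, at 10.9 against 7.91 and 7.6 RPKM. For meiotic prophase 0 of 43 were called, 6 were higher and 0 lower at that p, and 29 were higher in both 15-month libraries, beside 6.09%, 8.55% and 31.6% of all genes. The median was 0.18, and with length-corrected values 1 was higher at that p, beside 4.63% of all genes. Smc1b, the meiotic cohesin, was at 159 against 231 and 264 RPKM and Tex11, which acts in synapsis and crossing over, at 103 against 158 and 154 RPKM. The piRNA list had 0 of 26 called, with Fkbp6 at 171 against 244 and 232 RPKM and Mael at 137 against 161 and 147 RPKM.

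Of 73 regulators of DNA methylation and chromatin, Mll1 and Mll2 were called lower, and the median was -0.14. With a nominal p up to 0.05, 18 were lower and 2 higher, beside 8.55% and 6.09% of all genes. With length-corrected values 11 were lower and 6 higher at that p, beside 7.1% and 4.63% of all genes. The median was then -0.05 and 0 were called. Among the uncalled members, chosen after their values were seen, Kdm6b, a demethylase of H3K27, was at 9.78 against 4.77 and 5.42 RPKM, Setd2, which methylates H3K36, at 47.6 against 26.5 and 27.8 RPKM, and Tet3, which oxidises 5-methylcytosine, at 16.2 against 8.91 and 10.2 RPKM.

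Few genes of the signalling lists passed. For retinoic acid and KIT signalling 0 of 45 were called. With a nominal p up to 0.05, 9 were lower and 2 higher, beside 8.55% and 6.09% of all genes. After the length correction 6 were lower and 2 higher, beside 7.1% and 4.63% of all genes. Rps6, a target of the pathway's kinases, was at 77.1 against 155 and 158 RPKM. On the TGF-beta and BMP list 1 of 51 was called, Gdf9, and the list had a median of -0.04. For WNT signalling 0 of 56 were called, with Ctnnb1, which encodes beta-catenin, at 129.6 against 184 and 162 RPKM and Csnk1a1, a kinase of its destruction complex, at 52.8 against 50.7 and 49.7 RPKM. Splicing regulators had 0 of 65 called, with 5 higher and 10 lower at that p, beside 6.09% and 8.55% of all genes. After the length correction 6 were higher and 6 lower, beside 4.63% and 7.1%. Hnrnpk was at 127 against 138 and 129 RPKM and Hnrnpa2b1 at 124 against 136 and 162 RPKM. The medians were -0.08 for retinoic acid and KIT, -0.07 for WNT and -0.10 for splicing. The imprinted list had 0 of 30 called and a median of -0.16, with Grb10, a growth inhibitor, at 76.9 against 62.3 and 55.5 RPKM and Ube3a, a ubiquitin ligase, at 29.9 against 32.6 and 32.5 RPKM.

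Of 36 tested genes of cholesterol and lipid synthesis 0 were called, with Fdps at 188 against 385 and 289.8 RPKM and Acly at 142 against 139 and 128 RPKM, and of 65 of DNA repair and p53 0 were called, with Parp1, a sensor of strand breaks, at 165 against 268 and 229 RPKM and Msh6, of mismatch repair, at 109 against 137 and 119 RPKM. The immediate early and stress list had 0 of 34 called, with Atf4, an effector of the integrated stress response, at 28.9 against 35.7 and 40.8 RPKM and Fos at 11.7 against 18.6 and 15.6 RPKM. The interferon response list had 0 of 43 called, with Irf1 at 7.19 against 11.8 and 9.23 RPKM and Bst2 at 7.86 against 11 and 7.47 RPKM. None of the medians of these 4 lists lay beyond 0.11 in either direction.

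Of the marker lists of somatic and blood cells, the macrophage list rose most in summed level. Of 34 macrophage genes 26 were tested and 0 were called, but 14 were higher with a nominal p up to 0.05 and 0 lower, against 6.09% and 8.55% of all genes. Their summed level was 9.1 RPKM in the 8-month library and 28.2 and 102 RPKM in the 15-month libraries, and it was between 5.72 and 14.0 RPKM in the other 8 libraries. Lyz2, a lysozyme of myeloid cells, was at 0.662 RPKM in the 8-month library and 7.32 and 20.6 RPKM in the 15-month libraries (3.01 ± 0.53, adjusted p = 0.0558, limma), and Cd74, the invariant chain of MHC class II, at 0.565 RPKM in the 8-month library and 6.28 and 33.3 RPKM in the 15-month libraries (3.34 ± 0.85, adjusted p = 0.131, limma). In both genes replicate 2 was several times replicate 1, and replicate 1 was itself well above the 8-month library. Of the defining markers, Csf1r, the receptor of the macrophage growth factor, was at 0.18 against 0.766 and 1.55 RPKM and Emr1, which encodes F4/80, at 0.0223 against 0.76 and 2.04 RPKM, while Sfpi1, the myeloid factor PU.1, was listed at 0 in both 15-month libraries and Lyz1 in all 3. Of the whole list 6 genes were listed at 0 in the 8-month library and 8 and 2 in the 15-month libraries. Without replicate 1, 18 of the 26 were higher with a nominal p up to 0.05, and without replicate 2, 9. The count was 0 with voom on the recovered reads and 0 in the limma fit on the 3 KIT+ libraries alone, 3 with a filter at a mean of 1 RPKM, which tests fewer of them, and 4 with a replicate block within age.

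Inflammatory and MHC class II genes showed the same order of libraries. The chemokine and inflammation list summed to 23.6 RPKM in the 8-month library and 38 and 100.2 RPKM in the 15-month libraries, with 0 of 30 tested genes called. With a nominal p up to 0.05, 9 of the 30 were higher, beside 6.09% of all genes. Ccl4, a chemokine of activated macrophages, was at 0.658 against 4.38 and 21 RPKM and Nfkbia, the inhibitor of NF-kappa-B, at 3.12 against 5.29 and 6.82 RPKM. On the antigen presentation list 0 of 22 were called and the sum was 35.3 RPKM in the 8-month library and 61.4 and 133 RPKM in the 15-month libraries. H2-K1, an MHC class I heavy chain, was at 12.6 against 18 and 20.9 RPKM, and H2-Aa and H2-Eb1, class II chains chosen after their values were seen, were at 1.06 against 6.19 and 29.4 RPKM and 0 against 0.966 and 8.71 RPKM. Cd74 and Ctss are on both the macrophage and the antigen presentation list, and without them the latter summed to 34.5, 53.5 and 92.6 RPKM. The chemokine list shares no member with the macrophage list. The summed macrophage level moved with both lists across the 3 libraries, and its part in their values was not tested.

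The remaining lists of somatic and immune cell markers had no called gene. For Sertoli cells 0 of 20 were called, with Clu at 1.03 against 1.61 and 2.96 RPKM and Cst9 at 0.948 against 0.344 and 4.17 RPKM. For Leydig cells 0 of 12 were called, with Scarb1, a lipoprotein receptor, at 11.3 against 11.2 and 11.2 RPKM and Fdx1, an electron carrier of steroid synthesis, at 7.7 against 9.997 and 7.04 RPKM. For peritubular and endothelial cells 0 of 23 were called, with Acta2, smooth muscle actin, at 3.58 against 2.2 and 2.96 RPKM and Egfl7, an endothelial protein, at 2.53 against 5.51 and 5.38 RPKM, and for lymphocytes and mast cells 0 of 6, with Lck at 1.75 against 1.71 and 1.15 RPKM and Hdc at 0.193 against 0.354 and 0.285 RPKM. Their summed levels were 10.8 RPKM in the 8-month library and 6.61 and 18.2 RPKM in the 15-month libraries for the Sertoli list and 18.8 RPKM in the 8-month library and 19.1 and 19.6 RPKM in the 15-month libraries for the peritubular and endothelial list. The Leydig list summed to 26.4 RPKM in the 8-month library and 24.1 and 26.4 RPKM in the 15-month libraries.

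**Figure D5:**
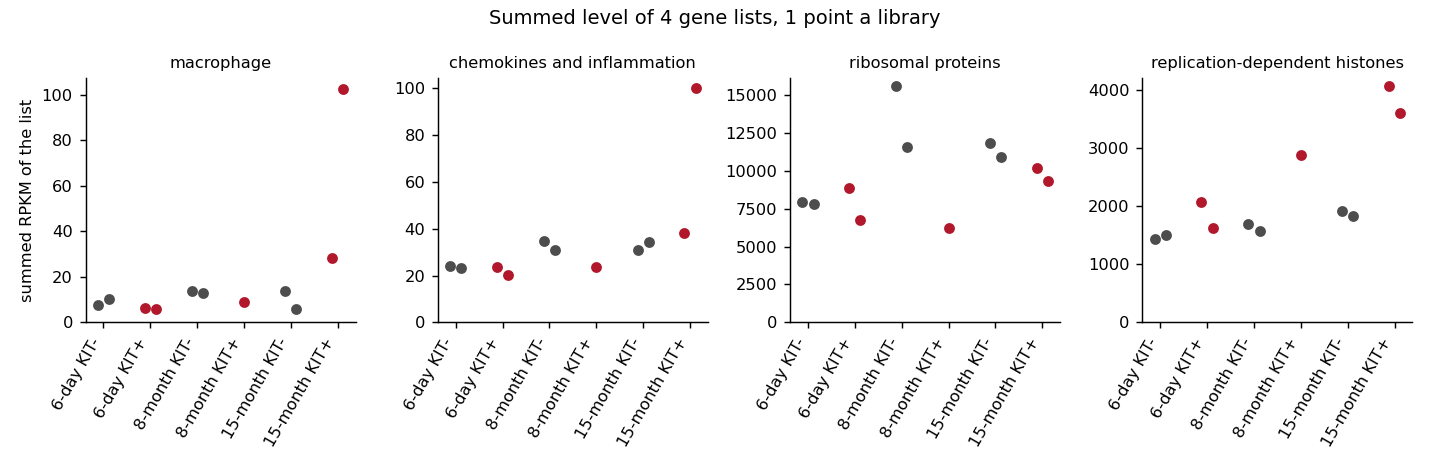
Summed RPKM of the macrophage, chemokine and inflammation, ribosomal protein and replication-dependent histone lists in each of the 11 libraries, with KIT+ libraries in red, KIT- libraries in grey and 1 point a library. The macrophage sum is 9.1 RPKM in the 8-month KIT+ library and 28.2 and 102 RPKM in the 15-month KIT+ libraries, and the histone sum is highest in the 15-month KIT+ libraries.

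Whether the age effect in KIT+ cells differed from that in KIT- cells was tested directly. The difference passed for 18 genes (0.0978%, limma, false discovery rate of at most 0.05), with a more positive effect in KIT+ cells for 2 (0.0109%) and a more negative one for 16 (0.0869%). The 2 were Hist1h3h and a 177 bp entry on chromosome 2 annotated as 7SK, which was chosen after its values were seen. In KIT+ cells that entry had 0 reads in the 8-month library and 17 and 21 in the deeper 15-month libraries. It passed the filter on reads only through those 15-month libraries. Whether it stands for the 7SK RNA itself was not tested. For the 16 the change lay in KIT- cells: their log2 fold change lay between 1.06 and 3.04 in KIT- cells and between -0.33 and 0.09 in KIT+ cells, where no library of 8 or 15 months exceeded 0.411 RPKM. Cmtm2a, a testis gene of the chemokine-like family, was at 0.226 against 0.0263 and 0.224 RPKM in KIT+ cells and went from 0.51 and 0.328 to 5.71 and 6.41 RPKM in KIT- cells. It passed the filter on reads only through the 15-month KIT- libraries. The spermatid and sperm list had a median log2 fold change of 0.03 in KIT+ and 1.32 in KIT- cells, with 0 of 50 called in KIT+ cells and 2 of 50 among the 18 genes. Its best expressed members in KIT+ cells, Odf2 and Tbpl1, were at 12.5 against 13.5 and 14.1 RPKM and 17.3 against 18.2 and 19.9 RPKM.

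Hist1h3h (ENSMUSG00000069312, chr13:21809497-21809984), a replication-dependent H3 gene, went the other way. It was at 47.9 RPKM in the 8-month library and 133 and 142 RPKM in the 15-month libraries for KIT+ cells and at 85.2 and 82.7 RPKM at 8 months and 5.3 and 13.5 RPKM at 15 months in KIT- cells. Both 15-month KIT+ libraries lay above, and both 15-month KIT- libraries below, every 8-month library of the 2 fractions. The difference between the age effects was 4.65 ± 0.57 (adjusted p = 0.0475, limma), although the KIT+ effect alone did not pass (adjusted p = 0.17). The H3 genes of the cluster are near-identical, so reads may have been split between copies. Among protein-coding genes of at least 5 RPKM in a group and with a more positive effect in KIT+ cells, the next by p were Mrpl42 and Mvk. Mrpl42, of the mitochondrial ribosome, was at 14 against 29 and 29.8 RPKM in KIT+ cells and from 49.2 and 32.2 to 26.7 and 25 RPKM in KIT- cells, and Mvk, mevalonate kinase, at 5.17 against 5.17 and 5.1 RPKM in KIT+ cells and from 9.87 and 9.13 to 4.07 and 4.02 RPKM in KIT- cells (adjusted p = 0.143 and 0.181). The age comparisons of the 2 fractions shared no library. The number of genes that passed lay between 0 and 206 when single libraries were left out (206 without 15-month KIT- replicate 2), and 0 passed with a filter at a mean of 1 RPKM.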

How the data were processed

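Total RNA of sorted KIT+ and KIT- germ cells had been sequenced, per the study's methods, after removal of ribosomal RNA. The authors trimmed the reads and mapped them to mm9, and featureCounts counted them per Ensembl gene. The submitters' processing notes also name Trim Galore and RSEM. TopHat is named for a separate transcript assembly. The aligner behind these gene counts, the strand setting and the tool that made RPKM are not given in the sources used here. The deposited values are RPKM, per gene and library. Exon lengths of GENCODE M1 (NCBIM37) turned 98.02% to 98.25% of them into whole reads within 0.05, which gave the depth. Each table held 39331 rows, of which 2007 belonged to 667 repeated identifiers, and 786 of 37991 identifiers lacked a length.

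Genes with at least 10 reads in at least 2 of the 11 libraries were tested on log2(RPKM + 1) with limma 3.58.1 (R 4.3.3), as 6 group means with a trended variance. Fold changes on this scale understate those of low genes. A call needed a Benjamini-Hochberg adjusted p up to 0.05 and a fold change of 1.5 or more, and the difference between the fractions that adjusted p alone. Values after ± are standard errors of the log2 difference.

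Of 1458 list members 1448 matched (14 by a RefSeq synonym). Members and lists were chosen with earlier results of these data known. Named were 10 genes of the sort, in each direction the 10 called protein-coding genes with the largest change at 5 RPKM or more and no overlap, up to 3 called non-coding genes over 200 bp, up to 4 called members of each list or otherwise its 2 best expressed members, and the 5 genes with the lowest p of the difference between the fractions in each direction. Others are said to be chosen later. A gene named by the rule is not reported here. The code was tested on simulated data, where it missed most of the genes that had been changed and made few false calls.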

Additional observations from a re-analysis of the deposited data

Results flagged for a closer look

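The age effect differed between KIT+ and KIT- cells for 5 of the genes named here, by the test of the difference itself in limma. For Cmtm2a the KIT+ effect minus the KIT- effect was -2.45 on the log2 scale, from -0.13 in KIT+ cells and 2.32 in KIT- cells. Cmtm2a passed the filter on reads only through the 15-month KIT- libraries, where it was high, so its p is not given as support. For 1700008P02Rik the difference was -2.37 (adjusted p = 0.0475), from -0.08 and 2.29. For 4930571K23Rik it was -1.98 (adjusted p = 0.0475), from -0.17 and 1.82. In the other direction the 177 bp entry annotated as 7SK, chosen after its values were seen, differed by 2.50, from 1.37 and -1.13. That entry passed the filter on reads only through the 15-month KIT+ libraries, so its p is not given as support. Hist1h3h differed by 4.65 (adjusted p = 0.0475), from 1.5 in KIT+ cells and -3.15 in KIT- cells.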

How the results depend on the processing

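The count of 97 calls became 0 with the 3 KIT+ libraries alone (2889 genes with a nominal p up to 0.05, limma), 4 with the 7 libraries of 8 and 15 months, 42 with length-corrected values, 179 with a filter at a mean of 1 RPKM, 379 with no filter, 57 without the variance trend, 248 with voom on the recovered reads and 2362 by fold change and non-overlap alone. It ranged from 22 to 323 when each library other than the 8-month KIT+ library was left out in turn, and without that library there is no comparison. Other settings gave 68 to 128 calls.

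The 18 differences between the fractions became 0 with 7 libraries (1486 with a nominal p up to 0.05, limma), 10 with length-corrected values, 0 with a mean of 1 RPKM (1284 at that p), 10 with median-of-ratios scaling, 297 with no filter, 1 with a pseudocount of 0.1, 5 with robust variance, 3 after thinning and 2 with voom. They ranged from 0 to 206 when libraries were left out.

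Nothing in the labels says that a replicate number pairs libraries, and deviations of same-numbered KIT+ and KIT- libraries correlated across genes at -0.06 at 15 months and at 0.05 at 6 days. With 1 KIT+ library at 8 months no such check was possible there. With the replicate block there were 179 calls and 2 differences between the fractions. With the block within age there were 0 of each (2142 and 1359 with a nominal p up to 0.05, limma).

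None of the 91 named genes changed direction while called. Of the 28 called ones 16 lost the call with length-corrected values, 21 and 24 without 15-month KIT+ replicates 1 and 2, 9 after thinning and 1 with median-of-ratios scaling. All 28 lost the call with the 3 KIT+ libraries alone and with the replicate block within age, and 26 lost it with the 7 libraries of 8 and 15 months. Of 34 list medians 6 changed sign with length-corrected values. Depth limits the low genes most, at 13815108 reads in the 8-month library. The causes of these changes were not tested.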

Other observations

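Some large differences did not pass the test, and the gene given here was chosen after its values were seen. AY036118, a transcript of 714 bp, was at 4.36 RPKM in the 8-month library and at 450.4 and 194 RPKM in the 15-month libraries. Its difference was 5.79 ± 1.35 on the log2 scale (adjusted p = 0.106, limma), and both 15-month libraries lay far above the 8-month library while differing from each other.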
